A study of Mus musculus with 6 samples.

Results

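The machinery that carries a cell from G1 into S phase was examined in activated mouse B cells with and without hnRNPL, an RNA-binding protein. The genes were the G1 cyclins *Ccnd1*, *Ccnd2*, *Ccnd3*, *Ccne1* and *Ccne2*, the cyclin-dependent kinases *Cdk2*, *Cdk4* and *Cdk6*, and the pocket proteins *Rb1* and *Rbl1*. These 10 genes were taken by symbol from a table of 55421 genes, and each symbol matched 1 row. The cells were GFP+ splenic B cells cultured for 24 h with LPS (5 µg/ml) and IL-4 (5 ng/ml), from mice on the C57BL6/J background that were older than 6 weeks. All mice carried *CD21-cre* and the reporter *Rosa mT/mG*. WT mice had intact *Hnrnpl* and hnRNPL-deficient mice were *Hnrnpl F/F*, with 3 mice and 3 polyA RNA libraries per group, 1 mouse per library. The reporter turns from tdTomato to GFP where Cre has acted, so the sort kept cells in which the reporter had recombined in both groups. CD21-cre acts mainly in mature B cells.

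Values are the authors' normalized counts, that is reads per gene divided by a size factor for each library. The libraries held 40395186 to 75180749 reads on genes, with hnRNPL-deficient library 3 the shallowest. *Hnrnpl* had 24371, 25579.7 and 24174 normalized counts in WT and 2178, 1519 and 1297 in hnRNPL-deficient libraries, so the targeted gene followed the labels (log2 fold change -3.93, adjusted p = 2.23e-05 from limma). *Xist* and Y-linked genes showed 1 female library in each group, WT library 3 and hnRNPL-deficient library 2. Markers of B cells summed to 290507 to 371955 normalized counts in WT and 285676 to 340862 in hnRNPL-deficient libraries, and all 8 were detected. One of them, *Cr2* (CD21, the gene whose promoter drives the Cre), was called higher (log2 fold change 0.85, adjusted p = 0.0444 from limma). Plasma cell markers summed to 33957 to 39571 in WT and 33296 to 36361 in hnRNPL-deficient libraries, nearly all of it *Irf4* and *Xbp1*. Of the same list, *Sdc1* had 111.54 to 127.71 in WT and 75.39 to 132.53 in hnRNPL-deficient libraries. *Jchain* had 26.0 to 117.21 and 7.07 to 23.44 and was called lower (-2.31, adjusted p = 0.0509 from limma). T cell markers summed to 157.8 to 216.2 in WT and 154.9 to 389.5 in hnRNPL-deficient libraries, most of it *Thy1*. *Trac* had 13.93 to 18.16 in WT and 21.64 to 32.90 in hnRNPL-deficient libraries, without overlap, and was not called (0.64, adjusted p = 0.256 from limma). *Cd3d*, *Cd3e*, *Cd3g*, *Cd4* and *Cd8a* did not exceed 6.92 in any library. NK cell markers summed to 26.0 to 39.5 in WT and 46.4 to 66.7 in hnRNPL-deficient libraries, without overlap, nearly all of it *Prf1*, which was called higher (0.89, adjusted p = 0.0884), with *Ncr1* at 0 throughout. Erythroid markers summed to 25.2 to 46.4 in WT and 55.9 to 85.8 in hnRNPL-deficient libraries, again without overlap, and *Hbb-bt* was called higher (1.82, adjusted p = 0.0235). Of 4 granulocyte markers 3 were at 0 throughout. The 6 macrophage markers summed to 260.0 to 331.1 in WT and 1239 to 1382 in hnRNPL-deficient libraries, nearly all of it from *Adgre1*, which was called higher (2.24, adjusted p = 1.39e-04), while *Lyz2*, *Cd14* and *Fcgr1* did not exceed 2.02 in any library. The part of these marker differences in the results was not tested. In bulk RNA, a lower level in each cell and fewer cells at a given stage of the cycle cannot be told apart.

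By way of background, D-type cyclins are made in response to mitogens and bind CDK4 or CDK6. The resulting kinases phosphorylate the pocket proteins, which otherwise hold E2F transcription factors in check. Freed E2F factors drive the genes for E-type cyclins and for DNA replication, and cyclin E with CDK2 completes the phosphorylation. Cyclin D2 is the D-type cyclin best known for its induction in stimulated mature B cells, cyclin D3 is known for its part in early B cell development and in germinal centers, and cyclin D1 is scarce in most lymphocytes.

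Each gene was tested with limma on log2(normalized count + 1) in 1 fit of all 17640 genes that averaged 10 or more normalized counts. A call needed an adjusted p (Benjamini-Hochberg) under 0.1 and a difference of at least 1.5-fold. Of the 10 genes, 9 were tested and *Ccnd1* was below the filter. Only *Ccnd2* was called, as lower in hnRNPL-deficient cells. That is 1 of 9, where 4.08% of all tested genes were called lower, and none was called higher, where the share of all tested genes was 7.28%. At an unadjusted p under 0.05 limma had 4 lower and 0 higher, where all tested genes had 12.9% and 14.4%. The edgeR and DESeq2 tests used 5 libraries, without hnRNPL-deficient library 2. Each called 1 of the 9 lower and 0 higher, where edgeR called 3.28% of all tested genes lower and 6.49% higher, and DESeq2 4.09% and 6.69%. Means were lower in hnRNPL-deficient cells for 7 of the 9 and higher for *Cdk6* and *Rb1*, with a median log2 fold change of -0.37 against -0.027 over all tested genes. Of all 17640 tested genes, 9304 had a log2 fold change below 0. For *Ccnd2*, *Cdk2*, *Cdk4* and *Rbl1*, each hnRNPL-deficient value was below each WT value. Of all tested genes 16.3% had this property. Without the fold minimum, *Ccnd2* and *Rbl1* passed the adjusted p, where 7.97% of all tested genes passed it as lower.

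**Figure D1:**
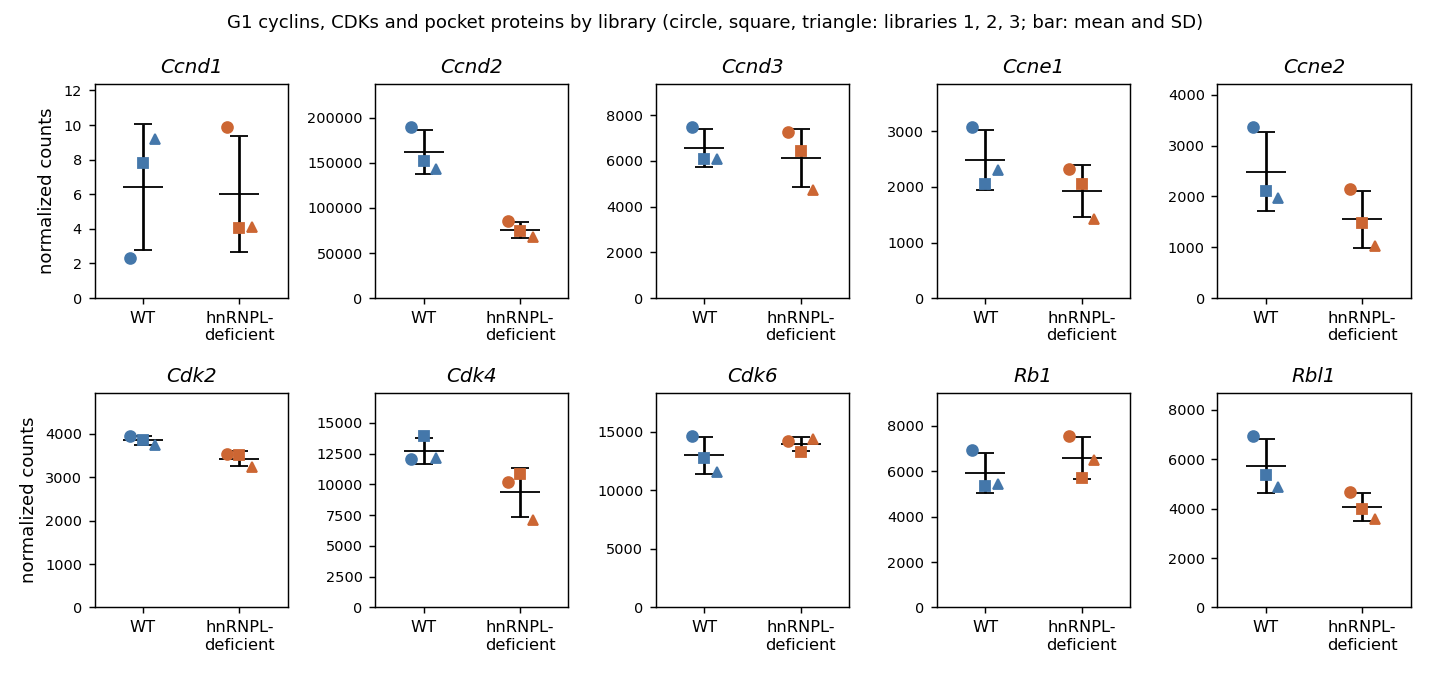
Normalized counts (linear axes starting at 0, 1 scale per panel) of the 10 genes in the 3 WT (blue) and 3 hnRNPL-deficient (orange) libraries; the marker shape gives the library number, the long bar the mean and the whiskers the SD. The 3 hnRNPL-deficient values lay below all WT values for Ccnd2, Cdk2, Cdk4 and Rbl1, and the groups overlapped for the other 6.

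*Ccnd2* (cyclin D2; chromosome 6, 127125162 to 127152193, minus strand, GRCm38 with GENCODE annotation) was by far the most abundant of these transcripts. It had 190356, 152627 and 143519 normalized counts in WT and 85345.5, 73939.3 and 67867.5 in hnRNPL-deficient libraries. All 3 hnRNPL-deficient libraries were below the lowest WT library by a wide margin, and the mean fell from 162167 ± 24834 to 75718 ± 8874 (SD, n = 3 mice each), that is by 53.3%. The log2 fold change was -1.09 (standard error 0.148, 95% interval -1.43 to -0.76, adjusted p = 0.00344 from limma). Among all genes of the table *Ccnd2* ranked 26th or 27th by normalized count in each WT library and between 45th and 62nd in the hnRNPL-deficient ones. These ranks take no account of gene length. With counts divided by the length of each gene's merged exons, *Ccnd2* ranked between 190th and 242nd in WT and between 400th and 434th in hnRNPL-deficient libraries. It stayed called as lower in all 21 alternative settings, with log2 fold changes from -1.18 to -0.90 and adjusted p up to 0.0155. On whole reads of 5 libraries, edgeR gave -1.05 (adjusted p = 0.0108) and DESeq2 -1.07 (adjusted p = 4.12e-07). The antisense gene *Gm43126*, which overlaps exons of *Ccnd2*, had 69.17 to 112.57 normalized counts in WT and 27.26 to 50.71 in hnRNPL-deficient libraries. A second antisense gene over its exons, *9330179D12Rik*, had 13.93 to 22.94 in WT and 17.16 to 38.38 in hnRNPL-deficient libraries, with overlap. The authors' counting used strand, but whether reads of *Ccnd2* assigned to the wrong strand add to these antisense counts was not tested. *Ccnd2* is also among the genes that the study itself named from these libraries, so its direction here is not independent of that choice.

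*Ccnd3* (cyclin D3; chromosome 17, 47505051 to 47599691, plus strand) did not follow *Ccnd2*. It had 7503, 6081 and 6103 normalized counts in WT and 7246, 6420 and 4737 in hnRNPL-deficient libraries. The groups overlapped, and library 3 of the hnRNPL-deficient group was the lowest. The log2 fold change was -0.11 (95% interval -0.49 to 0.26, adjusted p = 0.694 from limma), and it was 0.06 without that library. *Ccnd1* (cyclin D1; chromosome 7, 144929931 to 144939925, minus strand) was at the edge of detection. It was covered by 2, 9 and 12 reads in WT and by 11, 4 and 3 reads in hnRNPL-deficient libraries, which is 2.32 to 9.18 and 4.04 to 9.92 normalized counts. At this depth no difference in *Ccnd1* was detectable and no fold change is given.

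The makeup of the D-type cyclin transcripts was compared within each library, after dividing normalized counts by the length of each gene's merged exons in kb. This length joins all annotated exons of a gene and can exceed that of its transcripts, so the values are not numbers of transcripts. *Ccnd2* made up 95.9%, 95.9% and 95.6% of the D-type total in WT and 91.6%, 91.5% and 93.0% in hnRNPL-deficient libraries. *Ccnd3* supplied nearly all of the rest, 4.05 to 4.36% in WT and 6.96 to 8.52% in hnRNPL-deficient libraries. The ratio of *Ccnd2* to *Ccnd3* on this scale was 23.0 ± 0.934 in WT libraries and 11.7 ± 1.45 in the hnRNPL-deficient ones (SD, n = 3). The log2 ratio of normalized counts of *Ccnd2* to *Ccnd3* thus differed by -0.98 (standard error 0.106), without overlap between the groups. An exact two-sided permutation test gave p = 0.1, which is the smallest that 3 against 3 allows (adjusted p = 0.2 over the 6 ratios computed). A ratio within a library does not depend on scaling between libraries, and this one ranged from -1.08 to -0.92 when libraries were left out in turn. The D-type total was 51.4% below WT, at 8748 ± 1081 against 17985 ± 2730 normalized counts per kb (SD, n = 3), without overlap. *Ccnd2* made up most of that total, so the total and the ratios built on it largely restate the *Ccnd2* difference.

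The E-type cyclins were lower on average in hnRNPL-deficient cells, but neither passed the test. *Ccne1* (cyclin E1; chromosome 7, 38097984 to 38107534, minus strand) had 3088, 2051 and 2297 normalized counts in WT and 2330, 2047 and 1416 in hnRNPL-deficient libraries. The groups overlapped (log2 fold change -0.37, 95% interval -0.85 to 0.11, adjusted p = 0.300 from limma). *Ccne2* (cyclin E2; chromosome 4, 11191351 to 11204779, plus strand) had 3375, 2098 and 1971 in WT and 2147, 1477 and 1020 in hnRNPL-deficient libraries. Here the groups overlapped through hnRNPL-deficient library 1 alone, and the difference was -0.70 on the log2 scale (standard error 0.286, 95% interval -1.35 to -0.051, adjusted p = 0.154 from limma). Without that library *Ccne2* was called as lower (-0.97, adjusted p = 0.0672 from limma), and without hnRNPL-deficient library 3 it was not (-0.43, adjusted p = 0.348 from limma). The log2 ratio of *Ccne1* to *Ccne2* differed by 0.33 between groups that overlapped (exact permutation p = 0.2). The ratio of D-type to E-type cyclins per length was 9.92, 12.3 and 11.2 in WT and 6.64, 7.21 and 9.41 in hnRNPL-deficient libraries. These did not overlap, and *Ccnd2* dominated the D-type part.

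Of the kinases, *Cdk4* and *Cdk6* pair with D-type cyclins. *Cdk4* (chromosome 10, 127063534 to 127067920, plus strand) had 12038, 13933 and 12134 normalized counts in WT and 10150, 10849 and 7116 in hnRNPL-deficient libraries. The groups did not overlap, and hnRNPL-deficient library 3 was the lowest. The log2 fold change was -0.46 (standard error 0.160, 95% interval -0.82 to -0.094, adjusted p = 0.105 from limma), short of both thresholds. The count tests left out hnRNPL-deficient library 2, which had the highest *Cdk4* value of its group. On these 5 libraries *Cdk4* passed the adjusted p but not the fold minimum with edgeR (-0.52, adjusted p = 0.0882) and with DESeq2 (-0.54, adjusted p = 0.0349). Limma without that library gave the same outcome (-0.58, adjusted p = 0.078). Without hnRNPL-deficient library 3 instead, the limma value was -0.27 (adjusted p = 0.164). *Tspan31*, whose exons overlap *Cdk4* on the other strand, had 3085 to 3838 normalized counts in WT and 3760 to 4139 in hnRNPL-deficient libraries. *Cdk6* (chromosome 5, 3341485 to 3531008, plus strand) had 14639, 12757 and 11544 in WT and 14242, 13274 and 14403 in hnRNPL-deficient libraries. These groups overlapped (log2 fold change 0.11, 95% interval -0.14 to 0.36, adjusted p = 0.544 from limma). The log2 ratio of *Cdk6* to *Cdk4* was higher in each hnRNPL-deficient library than in any WT library, by 0.57 on average (standard error 0.252, exact permutation p = 0.1, adjusted p = 0.2). Left out in turn, libraries moved it between 0.36 and 0.73, and the lowest came without hnRNPL-deficient library 3. The ratio of D-type cyclins to *Cdk4* plus *Cdk6* was 3.73 ± 0.626 in WT and 2.27 ± 0.228 in hnRNPL-deficient libraries (SD, n = 3, per length). These did not overlap, and *Ccnd2* made up most of the D-type part.

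*Cdk2* (chromosome 10, 128697939 to 128705031, minus strand), the partner of cyclin E, varied little within either group. It had 3949, 3856 and 3743 normalized counts in WT and 3530, 3514 and 3224 in hnRNPL-deficient libraries. The groups did not overlap, although the means differed by only 11.1% (log2 fold change -0.17, standard error 0.0909, 95% interval -0.38 to 0.037, adjusted p = 0.268 from limma). The log2 ratio of *Cdk2* to *Cdk4* differed by 0.29 with overlap (exact permutation p = 0.2).

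The pocket proteins differed from each other. *Rb1* (the retinoblastoma protein; chromosome 14, 73183673 to 73325822, minus strand) had 6925, 5355 and 5454 normalized counts in WT and 7549, 5688 and 6489 in hnRNPL-deficient libraries. The groups overlapped (log2 fold change 0.15, 95% interval -0.17 to 0.48, adjusted p = 0.519 from limma). *Rbl1* (p107; chromosome 2, 157145893 to 157204534, minus strand), a pocket protein whose gene is itself regulated by E2F, had 6948, 5358 and 4879 in WT and 4674, 3975 and 3577 in hnRNPL-deficient libraries. All hnRNPL-deficient values were below all WT values. The log2 fold change was -0.48 (standard error 0.154, 95% interval -0.83 to -0.13, adjusted p = 0.0810 from limma), which passed the adjusted p but not the 1.5-fold minimum. It passed both when WT library 3 was left out (-0.59) and when hnRNPL-deficient library 1 was (-0.59). It missed the adjusted p when any of the 4 other libraries was left out (0.142 to 0.195 from limma), without the mean-variance trend (0.168), with edgeR (0.173) and with DESeq2 (0.141). Without both WT library 1 and hnRNPL-deficient library 3 it was -0.25. The log2 ratio of *Rbl1* to *Rb1* differed by -0.64 (standard error 0.113), again without overlap (exact permutation p = 0.1, adjusted p = 0.2), and stayed between -0.72 and -0.55 when libraries were left out in turn. The WT libraries held 1.00, 1.00 and 0.895 *Rbl1* for each *Rb1* in normalized counts, and the hnRNPL-deficient libraries 0.619, 0.699 and 0.551.

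**Figure D2:**
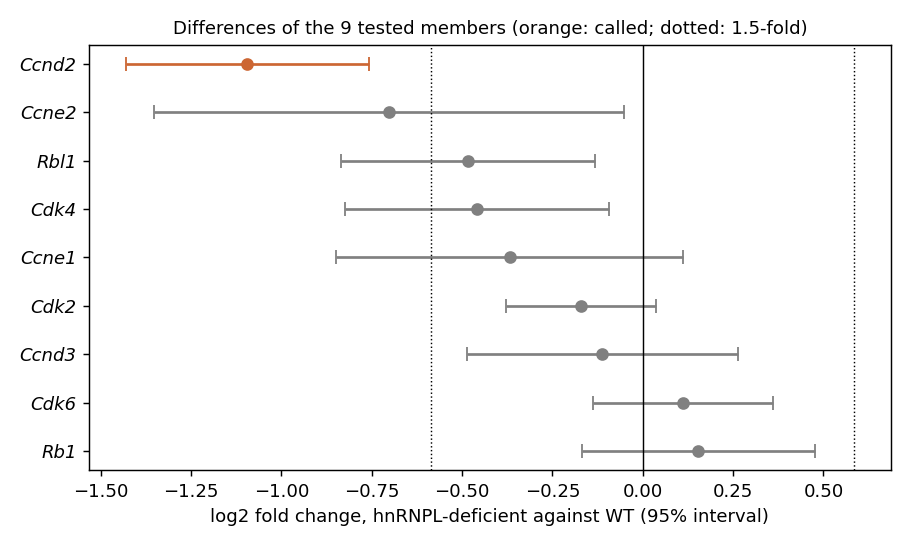
Log2 fold changes of the 9 tested genes (hnRNPL-deficient against WT, limma) with 95% intervals; orange marks a called gene and dotted lines mark 1.5-fold. Ccnd2 at -1.09 is the only called gene, and the intervals of Ccne1, Cdk2, Ccnd3, Cdk6 and Rb1 include 0.

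Promoter sequence is shown for the 3 genes besides *Ccnd2* whose groups did not overlap. RefSeq promoters on GRCm38.p6 were matched for 6 of the 10 genes, and *Ccnd1*, *Ccnd2*, *Ccne2* and *Rb1* had no entry. Windows of 250 bases before to 50 after the start were searched on both strands for the E2F octamers TTTCGCGC, TTTGGCGC, TTTCCCGC and TTTGCCGC, and for the E-box CACGTG, the sequence that MYC and related factors bind. An E2F octamer was in 2.26% and the E-box in 7.15% of all 32851 windows. The *Cdk4* window held 4 E-boxes, starting at -172, -118, -98 and -11 relative to the start. As many as 4 were found in 8 of all windows (0.0244%). The *Rbl1* window held TTTCGCGC at -18, and the *Cdk2* window held TTTCCCGC on the minus strand of the gene at -140. *Cdk6* held 1 E-box, and no searched motif was in the windows of *Ccne1* and *Ccnd3*. The 250 bases before the start follow, 5′ to 3′ on the strand of the gene, with motifs in capitals, for *Cdk4* (chr10:127063285-127063534, plus strand), *Rbl1* (chr2:157204535-157204784, minus strand) and *Cdk2* (chr10:128705052-128705301, minus strand). Of 15 genes on the list of E2F-regulated G1/S targets that had an entry, 6 held an E2F octamer in at least 1 window. That list was drawn up as E2F-regulated, and a count of genes is not on the scale of the share of windows, so no enrichment is read from it. A match describes the letters and was not tested for binding.
Cdk4: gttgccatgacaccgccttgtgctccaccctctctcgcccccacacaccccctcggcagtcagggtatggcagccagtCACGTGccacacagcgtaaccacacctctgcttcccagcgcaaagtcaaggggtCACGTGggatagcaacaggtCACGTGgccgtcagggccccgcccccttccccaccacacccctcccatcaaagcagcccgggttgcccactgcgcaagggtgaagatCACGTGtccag
Rbl1: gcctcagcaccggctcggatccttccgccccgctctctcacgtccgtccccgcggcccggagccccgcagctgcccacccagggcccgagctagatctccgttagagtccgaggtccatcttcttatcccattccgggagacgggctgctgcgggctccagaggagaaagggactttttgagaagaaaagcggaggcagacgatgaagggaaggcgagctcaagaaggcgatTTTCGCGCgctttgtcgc
Cdk2: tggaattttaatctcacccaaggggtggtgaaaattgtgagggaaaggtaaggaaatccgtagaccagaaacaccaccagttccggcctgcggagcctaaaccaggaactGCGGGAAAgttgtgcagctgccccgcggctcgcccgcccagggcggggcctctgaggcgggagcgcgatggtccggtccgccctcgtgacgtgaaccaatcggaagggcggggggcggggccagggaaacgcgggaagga

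On the scale of normalized counts per kb of merged exons, *Ccnd2* stood highest in both groups, with 17235 ± 2639 for WT and 8047 ± 943 for hnRNPL-deficient libraries (SD, n = 3). *Cdk4* came next at 3909 ± 329 and 2885 ± 611. Both levels were separate from their neighbours, as was *Ccnd1* at the bottom, at 1.36 ± 0.769 and 1.28 ± 0.716. In WT the 7 genes between lay from 619 (*Cdk2*) to 983 (*Rb1*), and each overlapped the next in order, namely *Rb1*, *Rbl1*, *Ccne1*, *Cdk6*, *Ccnd3*, *Ccne2* and *Cdk2*. In hnRNPL-deficient cells the order was *Rb1*, *Cdk6*, *Ccne1*, *Ccnd3*, *Rbl1*, *Cdk2* and *Ccne2*, from 1093 down to 443. *Rb1* and *Cdk6* overlapped each other there and were separate from *Ccne1*. On this scale *Rbl1* was number 4 of the 10 in WT and number 7 in hnRNPL-deficient cells. Its values overlapped those of *Rb1*, *Ccne1*, *Cdk6*, *Ccnd3* and *Ccne2* in WT. In hnRNPL-deficient libraries they overlapped those of *Ccne1*, *Ccnd3* and *Ccne2*. Its place among these genes is therefore not a separate level in either group.

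**Figure D3:**
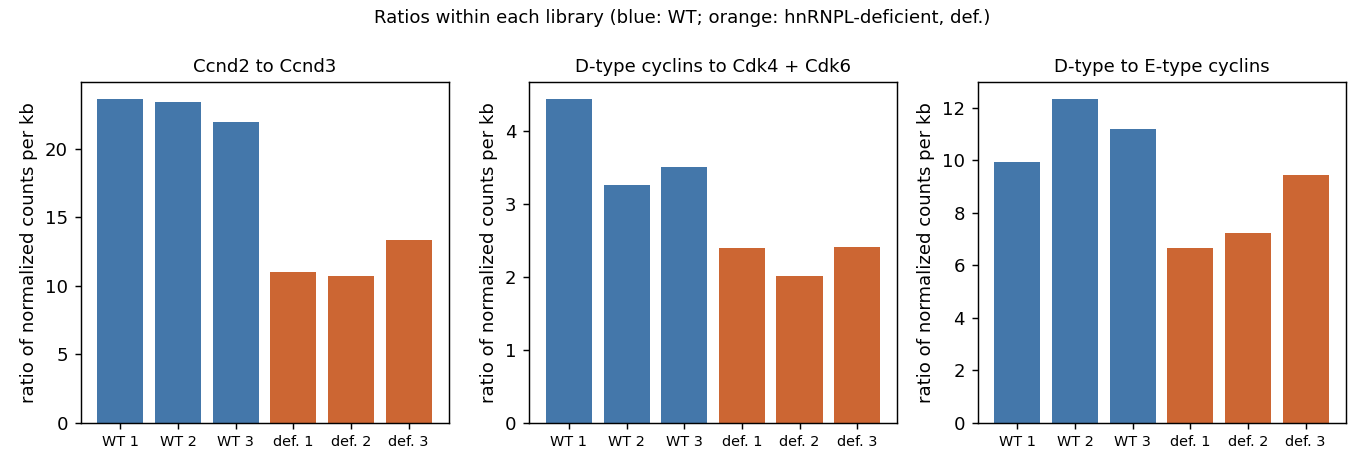
Ratios of normalized counts per kb within each library (linear axes from 0): Ccnd2 to Ccnd3, all D-type cyclins to Cdk4 plus Cdk6, and all D-type to all E-type cyclins; each bar is 1 library, blue for WT and orange for hnRNPL-deficient. In all 3 panels the hnRNPL-deficient bars are below the WT bars, from 10.7 to 13.4 against 21.9 to 23.7 in the left panel. Ccnd2 is in the numerator of all 3 ratios.

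The libraries were not evenly placed within their groups. WT library 1 was the highest WT library in 8 of the 9 tested genes, against 43.0% of all tested genes, and hnRNPL-deficient library 3 was the lowest of its group in 7 of 9, against 41.1%. For 5 genes of S and M phase (*Ccna2*, *Ccnb1*, *Ccnb2*, *Ccnf* and *Cdk1*) the same was so in 5 of 5 for both libraries. The part that this has in the differences was not tested, but the values without both libraries were computed. *Ccnd2* then had a log2 fold change of -0.90 (adjusted p = 0.00347 from limma), *Cdk4* -0.31 (adjusted p = 0.0966) and *Rbl1* -0.25 (adjusted p = 0.211). The value of *Ccne2* was then -0.19, that of *Ccne1* 0.0091 and that of *Ccnd3* 0.16 (adjusted p = 0.347), none of them called. The log2 ratio of *Ccnd2* to *Ccnd3* was then -1.06 and that of *Rbl1* to *Rb1* -0.52.

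The 61 other genes of the G1/S pathway, in 7 lists, were all tested, and 4 (6.56%) were called higher and 7 (11.5%) lower, where 7.28% and 4.08% of all tested genes were. Among 7 CDK inhibitors 2 were higher and none lower. All 7 had a higher mean in hnRNPL-deficient cells (median log2 fold change 1.17), where 8336 of all 17640 tested genes had a log2 fold change above 0. That median is the value of *Cdkn1c*, which had 2.29 to 11.61 normalized counts in WT and 2.02 to 25.24 in hnRNPL-deficient libraries and did not pass the test. Over the 5 inhibitors that averaged 50 or more normalized counts the median was 0.54. *Cdkn1a* (p21, an inhibitor of CDK2 complexes) had 439.8, 553.4 and 420.6 normalized counts in WT and 4739, 5193 and 4376 in hnRNPL-deficient libraries. It rose with a log2 fold change of 3.34 (adjusted p = 2.11e-05 from limma), without any overlap. *Cdkn2b* (p15, an inhibitor of CDK4 and CDK6) rose from between 50.47 and 67.44 to between 135.3 and 186.4, a log2 fold change of 1.46 (adjusted p = 0.00761 from limma). *Cdkn1b* (p27) had a log2 fold change of 0.22 and was not called. The study itself named *Cdkn1a*, *E2f1* and *E2f3* from these libraries, so the lists that hold them are not independent of its results.

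Of 10 E2F and DP factors 1 was higher and 2 were lower (median -0.25). The activator genes *E2f1* (log2 fold change -0.81, adjusted p = 0.0460 from limma) and *E2f3* (-0.73, adjusted p = 0.00855) fell, and *Tfdp2*, which encodes a dimerization partner of E2F, rose (1.05, adjusted p = 0.00291). *E2f1* lost its call when WT library 1 was left out (-0.70, limma adjusted p = 0.114) and when hnRNPL-deficient library 3 was (-0.55). Of 7 partners in the DREAM and MuvB complexes, which pair pocket proteins with E2F, 1 was higher and 1 lower. *Rbl2* (p130), the third pocket protein and the one typical of resting cells, had 1630 to 1830 normalized counts in WT and 2959 to 3109 in hnRNPL-deficient libraries, and rose (0.82, adjusted p = 0.00201 from limma). *Mybl2* (B-MYB), which joins MuvB in proliferating cells, fell from between 6389 and 6874 to between 2289 and 3601 (-1.17, adjusted p = 0.00344 from limma). The 3 pocket protein genes thus had log2 fold changes of 0.15 (*Rb1*), -0.48 (*Rbl1*) and 0.82 (*Rbl2*).

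Among 7 genes of CDK activation 1 was lower, *Cdc25a*, the phosphatase that activates CDK2 (-0.64, adjusted p = 0.0178 from limma), though it was under 1.5-fold without hnRNPL-deficient library 3 (-0.50) and under quantile normalization (-0.56). None of 8 genes for turnover of G1 cyclins was called by limma, edgeR or DESeq2, with 1 higher and 2 lower at an unadjusted p under 0.05 from limma (median -0.026). Likewise none of the 5 S and M phase genes was called by any of these, with 0 higher and 1 lower at the unadjusted p (median -0.45). All 17 E2F-regulated genes of G1/S and DNA replication had a lower mean in hnRNPL-deficient cells (median -0.50). Of all 17640 tested genes, 9304 had a log2 fold change below 0. Of the 17 genes, 3 were called, namely *Cdc6* (-0.85, adjusted p = 0.0301 from limma), *Ung* (-0.79, adjusted p = 0.00424) and *Mcm5* (-0.59, adjusted p = 0.0306). On 5 libraries edgeR and DESeq2 each called 4 of the 17 lower. *Cdc6* and *Mcm5* take part in the licensing of replication origins and *Ung* removes uracil from DNA. *Mcm5* was under 1.5-fold without WT library 1 (-0.51) or hnRNPL-deficient library 3 (-0.45), with totals made equal (-0.53) and under quantile normalization (-0.45). *Cdc6* was so without both of these libraries (-0.49). Over the 7 lists, the number called lower went from 7 to 14 without hnRNPL-deficient library 1 and to 4 without hnRNPL-deficient library 3. Without both WT library 1 and hnRNPL-deficient library 3 it was 3 lower and 7 higher.

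**Figure D4:**
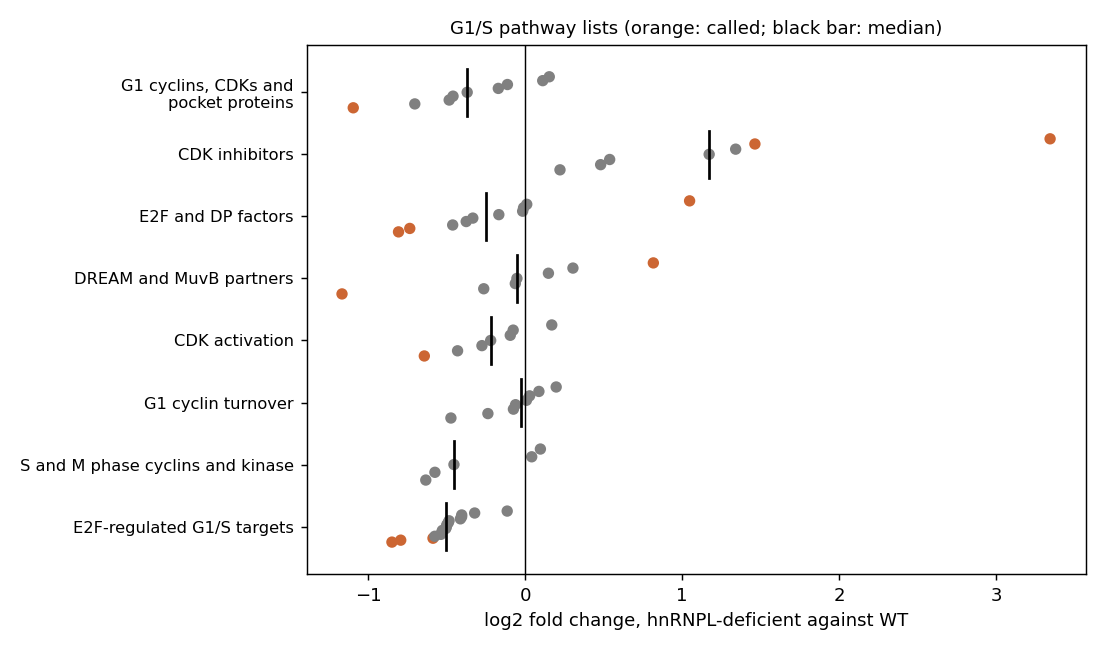
Log2 fold changes (hnRNPL-deficient against WT, limma) of the 9 tested G1 genes and of 61 further genes in 7 lists; each point is 1 gene, orange if called, and the black bar is the median of the list. The medians lie at 1.17 for CDK inhibitors (the value of Cdkn1c, a gene near the detection limit) and at -0.50 for E2F-regulated G1/S targets, against -0.37 for the G1 cyclins, CDKs and pocket proteins.

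The genes whose profile was most like that of *Ccnd2* were sought among 7101 genes that averaged 1000 or more normalized counts, by the root mean square difference of centred log2 values over the 6 libraries. These were *Dcaf7* (0.0733), *Pdk1* (0.0835) and *Hells* (0.0901). *Dcaf7*, a WD40-repeat scaffold protein, had 15515, 12762 and 12155 normalized counts in WT and 7105, 6759 and 6339 in hnRNPL-deficient libraries. *Pdk1*, a kinase that inhibits pyruvate dehydrogenase, ranged from 2308 to 3259 in WT and from 1183 to 1564 in hnRNPL-deficient libraries. *Hells*, a chromatin remodeler of dividing cells, ranged from 12704 to 18778 and from 6722 to 8750. Since most of the likeness lies between the groups, it is a description over 6 libraries and no test was made of it.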

How the data were processed

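Poly(A) RNA from sorted GFP+ B cells was sequenced by the authors, trimmed with fastp (0.23.1), aligned to mm10 with STAR (2.7.9a), counted per gene by strand with featureCounts, and divided by DESeq2 (1.38.2) size factors, per the submitters' processing notes and the study's methods. The deposited values are these normalized counts (a signal, not whole counts). A further 7 columns of the same file hold the authors' own comparison (mean, log2 fold change, standard error, test statistic, p-values and a class label) and were not used.

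Groups came from the labels. The limma test (3.58.1, with trend) on log2(normalized count + 1) used pseudocount 1, a mean of at least 10, and the study's thresholds. The log2 scale with a pseudocount understates changes of low genes. All values were whole reads within 0.01 after division by the smallest value, but the automatic check of whole reads does not take hnRNPL-deficient library 2. The edgeR (4.0.16, TMM) and DESeq2 (1.42.0) alternatives therefore used 5 libraries and called 1144 and 1180 genes higher and 578 and 721 lower. Coordinates and exon lengths come from GENCODE M21, which matched 54673 of 55421 identifiers. Its release differs from the authors' one. Tests were tried on simulated data first. R 4.3.3 and Python 3.11.15 were used.

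The members and lists were chosen with earlier results of these data known. Named are all 10 members, *Hnrnpl*, called genes of each pathway list (at most 4), and the 3 profiles nearest to *Ccnd2*. *Cdkn1b*, *Cdkn1c*, the single marker genes and the overlapping genes were added after their values were seen. Same-numbered libraries deviated with correlations of 0.429, 0.320 and 0.0663, so the numbers were not taken as pairs. Alternatives were other pseudocounts, filters, scalings, variance settings, thresholds, a sex covariate, the replicate block, each library left out, and, added after the data were seen, WT library 1 and hnRNPL-deficient library 3 both left out.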

Additional observations from a re-analysis of the deposited data

How the results depend on the processing

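*Ccnd2* kept its direction and its call in all 21 alternatives. The number of members called lower, 1, became 2 with the replicate block (*Ccne2* joined, at -0.70 with an adjusted p of 0.00388 from limma), 2 with no fold minimum, and 1 to 3 with a library left out. Each pair was correlated best with its own number for WT libraries 1 and 2 but not for 3, whose deviations were closer to hnRNPL-deficient library 2 (0.305). Pathway genes called higher (4) became 7 without both WT library 1 and hnRNPL-deficient library 3, and 4 to 5 with 1 library left out. Those called lower (7) became 3 without both, 1 at an adjusted p under 0.05 and 2-fold, 13 with no fold minimum, and 4 to 14 with 1 library left out. Over all genes, 610 higher and 216 lower were called at an adjusted p under 0.05 and 2-fold, 1406 lower with no fold minimum, and 850 to 1124 higher and 483 to 695 lower with 1 library left out, the lowest count of higher genes without WT library 3. Signs turned for *Ccnd3* under quantile normalization (0.0072), without hnRNPL-deficient library 3 (-0.24 to 0.063 over the libraries left out in turn) and without both (0.16), and for *Ccne1* without both (0.0091), all uncalled, and the cause was not tested. Of the values of single genes, 473 stayed on their side of the threshold, 23 lost and 5 gained a call. Among the 10 members only *Ccnd1* was at the edge of detection, with at most 12 reads. Outside the members, *Cdkn1c* (2.02 to 25.24 normalized counts), *Hbb-bt* (6.88 to 56.54) and *Jchain* (7.07 to 117.21) were also low. The other erythroid markers and the T cell markers besides *Thy1* were low too. The effect of depth on the other genes was not tested.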
